A study of Rattus norvegicus with 18 samples.

Results

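The genes examined in rat lung belong to the osteopontin and lipid-associated macrophage program: *Spp1*, *Gpnmb*, *Trem2*, *Cd9*, *Cd63*, *Lgals3*, *Fabp4*, *Fabp5*, *Lpl* and *Plin2*. They were taken by symbol, and all 10 of 10 were found among the 22081 genes of the tables. The genes were selected on their levels in MWCNT-treated and control rats, so that contrast is described below without p-values. Tests are kept for change with time, but they use the same rats and are not independent of the selection. Male F344 (F344/DuCrlCrlj) rats received MWNT-7, a straight and rigid multi-walled carbon nanotube (MWCNT), by intratracheal instillation at 0.5 mg/kg every 4 weeks, beginning in young adulthood, and control rats received the saline and Tween 80 vehicle on the same schedule. RNA of the accessory lung lobe was sequenced from 3 control and 3 MWCNT-treated rats per time point (Years 0.5, 1 and 2 of the experiment). Tissue with visible tumors was left out, and the absence of tumors was checked under the microscope in the rest of the lobe, not in the sequenced piece. Every one of the 18 rats was a separate animal. A piece of whole lobe was used, so focal lesions and inflammatory infiltrates could be sampled together with normal parenchyma. The depth was 13297643 to 17868851 counted reads per control rat and 14661589 to 21130757 per treated rat.

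Lipid-associated macrophages are a state of tissue macrophages first described in adipose tissue and also found around lipid-laden lesions, in fibrotic organs and in tumors. Their receptor TREM2 binds lipids and lipoproteins and signals through the adaptor TYROBP (DAP12) and the kinase SYK. Cells in this state take up lipid, store it in droplets, break it down in lysosomes, and secrete osteopontin, the product of *Spp1*, a matrix protein that binds CD44 and integrins. Alveolar macrophages are the cells that engulf inhaled fibers, and they also clear surfactant lipid. Several of the 10 genes are not limited to macrophages: *Lpl* and *Fabp4* are also known from adipocytes and capillary endothelium, and *Cd9* and *Cd63* from most cells.

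In the Rnor_6.0 coordinates of the deposited tables, *Spp1* lies on chromosome 14 from 6673686 to 6679901, *Gpnmb* on chromosome 4 from 78694447 to 78715683, and *Trem2* on chromosome 9 from 14611561 to 14618013. *Fabp4* and *Fabp5*, which belong to one family, lie near each other on chromosome 2, from 93792601 to 93797305 and from 93981656 to 93985378. *Cd9* is on chromosome 4 (157977162 to 158010166), *Cd63* on chromosome 7 (3320103 to 3335582), *Lgals3* on chromosome 15 (24141651 to 24165537), *Lpl* on chromosome 16 (22537056 to 22561496) and *Plin2* on chromosome 5 (104984414 to 105010857).

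The 250 bases before the annotated start were read from the RefSeq promoter table of another build, GRCr8, which held 6 of the 10 genes (*Spp1*, *Gpnmb*, *Trem2*, *Cd9*, *Cd63* and *Plin2*). A subset is shown: *Gpnmb* and *Cd63*, whose windows hold the most of the sequences searched, *Spp1*, which had by far the largest difference, and *Plin2*, a lipid droplet gene with a small one. Capitals mark letters of the E-box CACGTG and of the M-box core TCATGTG, which transcription factors of the MITF and TFE family are known to bind, and of the AP-1 sequence TGANTCA, each searched on both strands.
Gpnmb: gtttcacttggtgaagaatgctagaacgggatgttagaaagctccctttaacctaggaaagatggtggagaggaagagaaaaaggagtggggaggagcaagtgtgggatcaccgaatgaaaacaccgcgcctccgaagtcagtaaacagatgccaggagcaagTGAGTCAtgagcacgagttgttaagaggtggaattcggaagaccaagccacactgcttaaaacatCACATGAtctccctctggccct
Cd63: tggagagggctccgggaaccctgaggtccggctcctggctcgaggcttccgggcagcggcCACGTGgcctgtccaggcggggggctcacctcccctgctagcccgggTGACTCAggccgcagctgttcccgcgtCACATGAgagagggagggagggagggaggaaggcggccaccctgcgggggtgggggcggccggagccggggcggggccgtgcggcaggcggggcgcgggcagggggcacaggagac
Spp1: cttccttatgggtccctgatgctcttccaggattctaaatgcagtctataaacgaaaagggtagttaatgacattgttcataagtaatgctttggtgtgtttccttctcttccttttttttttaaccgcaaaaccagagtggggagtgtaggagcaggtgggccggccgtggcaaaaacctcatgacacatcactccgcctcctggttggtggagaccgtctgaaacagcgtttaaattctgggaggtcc
Plin2: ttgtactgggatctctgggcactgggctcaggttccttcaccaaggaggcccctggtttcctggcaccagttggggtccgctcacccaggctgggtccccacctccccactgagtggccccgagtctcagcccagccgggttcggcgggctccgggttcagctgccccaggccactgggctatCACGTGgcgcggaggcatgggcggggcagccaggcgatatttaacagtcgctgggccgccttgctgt
They are chr4:79340878-79341127 (plus strand), chr7:1921894-1922143 (plus strand), chr14:5619805-5620054 (minus strand) and chr5:106229019-106229268 (minus strand) in GRCr8. *Gpnmb* held the M-box core, as CACATGA beginning 22 bases before the start, and an AP-1 sequence 87 bases before it. *Cd63* held an E-box, an M-box core and an AP-1 sequence, beginning 190, 116 and 143 bases before the start. *Plin2* held an E-box 67 bases before the start shown, and none in its other listed promoter. Of the 33469 promoters of this length in the table, 5.59% held the E-box, 3.07% the M-box core and 6.34% the AP-1 sequence. The GAGGAA core bound by the macrophage factor PU.1 was in *Gpnmb*, *Trem2*, *Cd9* and *Cd63* and in 23.3% of all promoters. TATAAA was in *Spp1* alone of the 6, beginning 204 bases before the start, and in 12.9% of all promoters. The windows of *Trem2* and of *Cd9* held no E-box, M-box core or AP-1 sequence. These matches describe letters in the window. No binding was measured, and the relation of the letters to expression was not tested.

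The genes were first described by their level in TPM, a share of all transcripts that is scaled for gene length so that genes can be compared. The 10 genes together made up 0.252 to 0.312% of all TPM in control lungs and 0.781 to 1.34% in treated lungs. In control rats at Year 2, *Cd9* was the highest at 924 ± 10.02 TPM (SD, n = 3). *Cd63* (430 ± 38.3), *Lgals3* (320 ± 25.2), *Gpnmb* (273 ± 59.3), *Fabp5* (238 ± 11.2) and *Lpl* (233 ± 12.9 TPM) followed. Ranges of neighbors in that order overlapped for *Lgals3* and *Gpnmb*, for *Gpnmb* and *Fabp5*, and for *Fabp5* and *Lpl*. *Plin2* (116 ± 2.20), *Trem2* (48.2 ± 3.62), *Fabp4* (21.9 ± 6.32) and *Spp1* (2.74 ± 3.23 TPM) were lower, with no overlap between neighbors. In MWCNT-treated rats of the same age the order was different. *Gpnmb* led at 4116 ± 298 TPM, ahead of *Lgals3* (2249 ± 209), *Spp1* (1374 ± 305), *Cd63* (1201 ± 85.8), *Fabp5* (959 ± 12.2), *Cd9* (844 ± 34.9), *Fabp4* (678 ± 33.6), *Lpl* (607 ± 67.4), *Trem2* (290 ± 13.1) and *Plin2* (224 ± 15.5). There the ranges of *Spp1* and *Cd63* overlapped, as did those of *Fabp4* and *Lpl*.

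**Figure D1:**
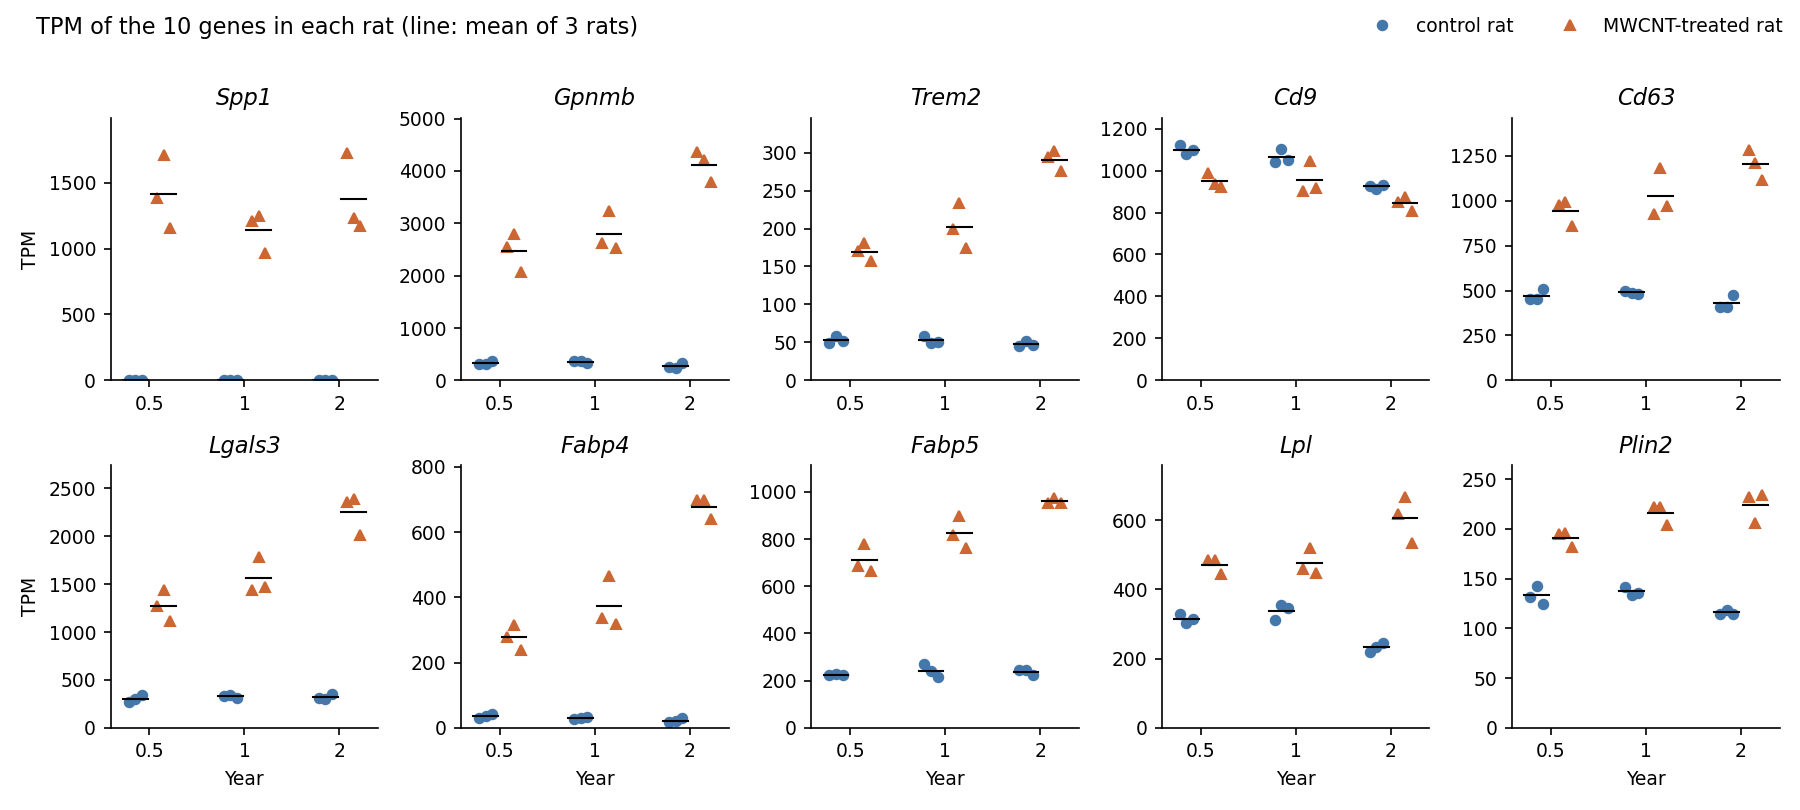
TPM of each of the 10 genes (vertical axis, from 0, with its own scale in each panel) in every rat at Years 0.5, 1 and 2; circles are control rats, triangles are MWCNT-treated rats and lines are the means of 3 rats. The treated rats lie above all control rats of the same year for every gene but *Cd9*. For *Gpnmb*, *Trem2*, *Lgals3*, *Fabp4*, *Fabp5* and *Lpl*, all treated rats of Year 2 lie above all treated rats of earlier years. The treated means of *Cd63* and *Plin2* are also highest at Year 2, with overlap between years.

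At the threshold for differentially expressed genes (DEGs), an FDR below 0.05 with an absolute log2 difference above 1, 7, 7 and 9 of the 10 genes were higher after MWCNT treatment at Years 0.5, 1 and 2. Of all genes tested, 6.07%, 6.13% and 8.17% were higher by the same rule. None of the 10 was lower, where 3.03%, 4.09% and 8.22% of all genes were. With the FDR alone, 9 of the 10 were higher in each year, beside 20.2%, 21.6% and 25.2% of all genes, and none was lower, beside 18.6%, 19.6% and 24.0%. These counts follow from how the genes were chosen and nothing is read from them. The median log2 difference of the 10 genes was 1.81, 2.10 and 2.52 at the 3 time points, and that of all genes tested was -0.02, 0.00 and -0.01. In whole tissue, a larger number of cells and more RNA in each cell cannot be told apart.

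The secreted proteins are described first. *Spp1*, which had the largest difference of the 10 genes in every year, was barely expressed in the control lungs, with 2.53, 1.90 and 4.90 TPM in the 3 rats at Year 0.5, 2.00, 2.47 and 1.56 TPM at Year 1, and 1.16, 0.61 and 6.46 TPM at Year 2. In the MWCNT-treated lungs it had 1386, 1708 and 1157 TPM at Year 0.5, 1209, 1249 and 963 TPM at Year 1, and 1724, 1229 and 1169 TPM at Year 2. No treated rat came near any control rat, and the 3 groups of treated rats overlapped each other. The counts behind these values were 7 to 67 reads in the control rats and 12115 to 28509 in the treated rats. The log2 differences were 8.97, 9.40 and 9.23 (SE 0.28, 0.21 and 0.54), which are ratios of 503, 675 and 600. The large error at Year 2 came with control rat 3, whose 6.46 TPM was above all other control rats, and without that rat the log2 difference at Year 2 was 10.79.

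*Lgals3* encodes galectin-3, a sugar-binding lectin that macrophages release and that marks damaged lysosomes. It had 267, 304 and 347 TPM in control rats at Year 0.5, 334, 346 and 312 TPM at Year 1, and 309.9, 301 and 348 TPM at Year 2. In MWCNT-treated rats it had 1269.5, 1434 and 1119.6 TPM, then 1436, 1787 and 1465 TPM, and then 2354, 2386 and 2008 TPM. Control rats stayed within a narrow band at all times, whereas every treated rat of Year 2 was above every treated rat of the earlier years. The log2 differences between treatments were 2.21, 2.48 and 3.03 (SE 0.12, 0.13 and 0.11).

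The membrane receptors differed less than *Spp1* in ratio, but *Gpnmb* reached the highest level of the 10 genes. *Gpnmb*, a glycoprotein of melanosomes, lysosomes and the macrophage surface, had 317, 307 and 361 TPM in control rats at Year 0.5, 364, 367 and 324 TPM at Year 1, and 249.8, 229 and 340.3 TPM at Year 2. In MWCNT-treated rats it had 2541, 2796 and 2065 TPM, 2625, 3232 and 2534 TPM, and 4353, 4213 and 3782 TPM at the 3 time points. The treated rats of Year 2 stood apart from those of Years 0.5 and 1, which overlapped. Its log2 differences were 3.06, 3.23 and 4.13 (SE 0.13, 0.14 and 0.16).

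*Trem2*, the lipid-sensing receptor itself, was expressed at a lower level than *Gpnmb* throughout. It had 49.8, 58.2 and 51.3 TPM in control rats at Year 0.5, 58.8, 49.4 and 50.4 TPM at Year 1, and 45.3, 52.3 and 47.1 TPM at Year 2. In MWCNT-treated rats it had 171, 181 and 157 TPM, 199.95, 234 and 174 TPM, and 294, 302 and 276 TPM. Treated rats again overlapped between Years 0.5 and 1 and were higher at Year 2. The log2 differences were 1.82, 2.18 and 2.81 (SE 0.09, 0.15 and 0.08).

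The 2 tetraspanins, membrane proteins that organize receptors and mark late endosomes and exosomes, gave unlike results. *Cd63*, the tetraspanin of late endosomes and lysosomes, ranged from 407 to 509 TPM over the 9 control rats and from 859 to 1284 TPM over the 9 treated rats. Its log2 differences were 1.14, 1.31 and 1.70 (SE 0.08, 0.12 and 0.10). *Cd9*, which is found at the surface of many cell types, was the exception among the 10 genes. It had 1122, 1080.1 and 1098 TPM in control rats at Year 0.5 and 926, 913 and 933 TPM at Year 2, against 989, 937 and 923 TPM and 849, 876 and 807 TPM in treated rats, so on this scale the treated rats were lower without overlap at both times. At Year 1 they overlapped, with 1041, 1104 and 1050.3 TPM in control rats and 903, 1045 and 918 TPM in treated rats. After TMM normalization of the counts the log2 differences were only -0.07, 0.08 and 0.08 (SE 0.06, 0.10 and 0.08), and the direction at Years 1 and 2 turned to -0.05 and -0.09 when counts were scaled by library size alone, a scaling that lowered the median of all genes to -0.12, -0.13 and -0.18 at the 3 time points. At Years 1 and 2 no direction for *Cd9* held across these scalings, and at Year 0.5 its difference was below 0 under all scalings tried, from -0.21 to -0.06.

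Among the lipid-handling genes, *Fabp4* stood out. It encodes the fatty acid binding protein of adipocytes and macrophages. It had 30.5, 36.9 and 42.4 TPM in control rats at Year 0.5, 28.4, 28.8 and 32.7 TPM at Year 1, and 16.9, 19.7 and 29.0 TPM at Year 2. In MWCNT-treated rats it had 279.5, 315 and 239 TPM, 337, 464 and 318 TPM, and 697, 698 and 639 TPM. Control levels were lowest and treated levels highest at Year 2, and the groups never overlapped. The log2 differences were 3.08, 3.88 and 5.18 (SE 0.15, 0.19 and 0.15). Its relative *Fabp5*, the epidermal type, had 214 to 271 TPM over the control rats and 665 to 973 TPM over the treated rats, with log2 differences of 1.80, 2.01 and 2.22 (SE 0.08, 0.12 and 0.08).

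*Lpl* encodes lipoprotein lipase, which releases fatty acids from circulating triglyceride. It had 329, 303 and 315 TPM in control rats at Year 0.5, 312, 354 and 347 TPM at Year 1, and 220.1, 234 and 246 TPM at Year 2. Treated rats had 486, 485 and 444 TPM, 459.7, 519.6 and 447 TPM, and 619.6, 668 and 535 TPM. The groups did not overlap within any year, and control rats of Year 2 were the lowest of all. The log2 differences were 0.72, 0.74 and 1.60 (SE 0.07, 0.10 and 0.10). *Plin2* encodes perilipin-2, which coats lipid droplets in most cells. It ranged from 115 to 143 TPM over the control rats and from 182 to 234 TPM over the treated rats, with log2 differences of 0.66, 0.89 and 1.17 (SE 0.07, 0.08 and 0.08).

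**Figure D2:**
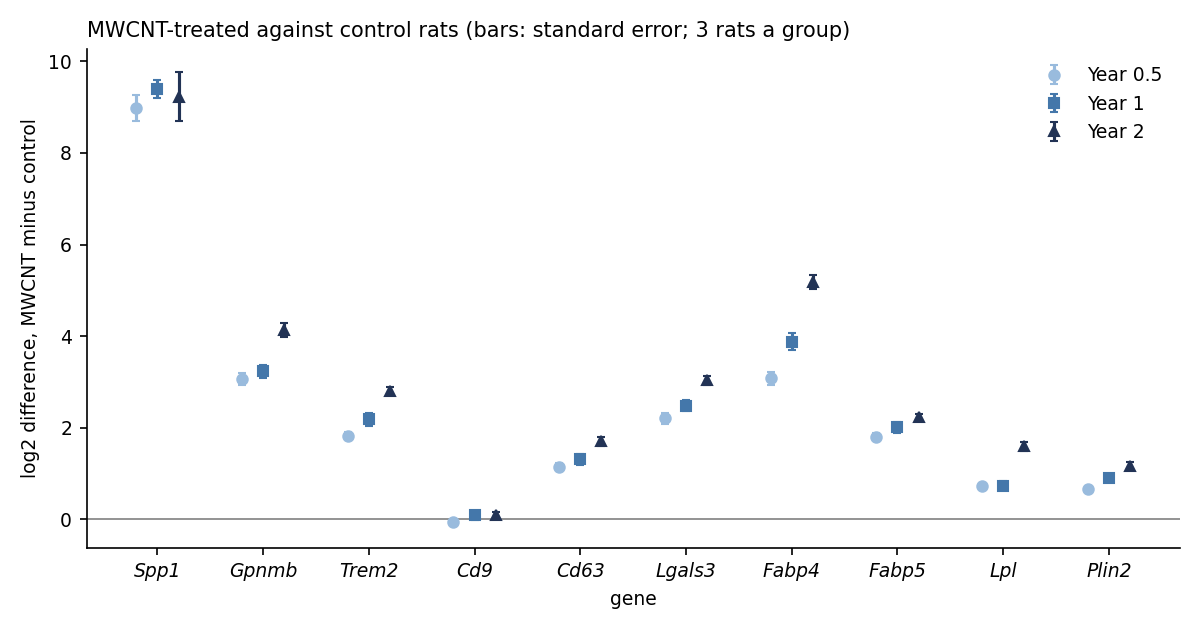
Log2 difference between MWCNT-treated and control rats (vertical axis) for each gene at Year 0.5 (circles), Year 1 (squares) and Year 2 (triangles), with bars for the standard error of 3 rats against 3. *Spp1* lies near 9 at every time point, *Cd9* lies near 0, and *Fabp4* climbs from 3.08 to 5.18.

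Whether the treatment difference changed with time was tested as an interaction in one model of all 18 rats. The interaction is built from the same rats and the same treatment differences on which the genes were selected. Its FDR values and counts are therefore not independent of that selection. Between Year 0.5 and Year 2, 1.31% of the 14843 genes tested passed at an FDR below 0.05, in either direction. Of the 10 genes, 6 passed, and for all of them the difference increased. *Fabp4* increased most, by 2.11 on the log2 scale (SE 0.27, FDR 0.00136). *Gpnmb* increased by 1.08 (SE 0.21, FDR 0.0211), *Trem2* by 0.99 (SE 0.17, FDR 0.00958), *Lpl* by 0.88 (SE 0.13, FDR 0.0048), *Lgals3* by 0.83 (SE 0.18, FDR 0.0295) and *Plin2* by 0.51 (SE 0.11, FDR 0.029). *Cd63* (0.57, SE 0.15, FDR 0.0791), *Fabp5* (0.43, SE 0.14, FDR 0.164) and *Cd9* (0.16, SE 0.11, FDR 0.546) did not pass. For *Spp1*, whose difference was the largest, the interaction was 0.26 with an SE of 0.65 (FDR 0.907), an error that left a wide range of changes possible.

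When single rats were left out in turn, *Fabp4*, *Trem2* and *Lpl* passed in every case, with highest FDR values of 0.00954, 0.0400 and 0.0273. *Gpnmb*, *Lgals3* and *Plin2* did not, and their FDR reached 0.0781, 0.119 and 0.133. The count of genes was 3 without control rat 1 of Year 2, without control rat 2 of Year 2, without treated rat 3 of Year 0.5, or without treated rat 1 of Year 2.

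Between Year 1 and Year 2 the interaction passed for 2 of the 10 genes, beside 0.478% of all genes in either direction. These were *Lpl* (0.88, SE 0.13, FDR 0.0155) and *Fabp4* (1.31, SE 0.27, FDR 0.0431), the latter lost in most fits with a single rat left out (FDR up to 0.136). *Gpnmb* (0.91, SE 0.21, FDR 0.0561) and *Trem2* (0.64, SE 0.17, FDR 0.0735) lay just beyond the threshold, and without treated rat 2 of Year 1, which had the highest level of its group for all 10 genes, 6 of the 10 passed. Leaving out control rat 3 of Year 1 lowered the count to 0. Between Year 0.5 and Year 1 no gene of the 10 passed and none of the 14843 tested did (0.0%). At an unadjusted p below 0.05, 1 of the 10 passed there (*Fabp4*, 0.80, SE 0.26), and DESeq2 and limma also called 0 of the 10.

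The interaction has 2 sides, and both were examined. Each side uses rats on which the genes were selected, so its FDR values and counts are also not independent of that selection. In the MWCNT-treated rats, 8 of the 10 genes were higher at Year 2 than at Year 0.5 with the FDR alone, beside 13.5% of all genes in either direction. *Fabp4* (1.37, SE 0.16), *Lgals3* (0.90, SE 0.13), *Trem2* (0.86, SE 0.11) and *Gpnmb* (0.82, SE 0.15) rose most on the log2 scale, with FDR values of 5.59e-05, 0.000204, 0.000134 and 0.00177. *Fabp5* (0.52, SE 0.10), *Lpl* (0.45, SE 0.09), *Cd63* (0.44, SE 0.11) and *Plin2* (0.32, SE 0.08) rose by smaller amounts. *Cd63* and *Plin2* did not pass without treated rat 3 of Year 0.5 or treated rat 1 of Year 2 (FDR up to 0.0874 and 0.0803), and the other 6 passed with any single rat left out. *Spp1* (0.04, SE 0.28, FDR 0.948) and *Cd9* (-0.08, SE 0.08, FDR 0.514) did not pass. *Fabp4* alone also met the DEG threshold, beside 2.34% of all genes. Between Year 1 and Year 2, 5.94% of all genes passed with the FDR alone, in either direction. Those of the 10 that passed were *Gpnmb*, *Trem2*, *Lgals3*, *Fabp4* and *Lpl*, all higher (log2 0.57, 0.53, 0.54, 0.87 and 0.37). Of these 5, *Fabp4* passed with any single rat left out (highest FDR 0.0279). *Gpnmb*, *Lgals3* and *Lpl* did not pass without treated rat 1 or 3 of Year 1 or treated rat 1 or 2 of Year 2 (FDR up to 0.133, 0.0857 and 0.115), nor *Trem2* without treated rat 1 or 3 of Year 1 (up to 0.0535), and all 4 missed the threshold when the 6 rats compared were fitted alone (FDR 0.0637 to 0.152). None of the 10 met the DEG threshold between Year 1 and Year 2, beside 0.903%. Between Year 0.5 and Year 1 none of the 10 did, beside 0.0472%, although 5 had an unadjusted p below 0.05.

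In the control rats the changes were few and in the opposite direction. With the FDR alone, *Fabp4* (-0.74, SE 0.21, FDR 0.0481) and *Lpl* (-0.43, SE 0.09, FDR 0.0133) were lower at Year 2 than at Year 0.5, beside 6.65% of all genes in either direction. *Lpl* was also lower at Year 2 than at Year 1 (-0.51, SE 0.09, FDR 0.00725), beside 7.93% in either direction. The fall of *Fabp4* was lost when some of the rats were left out, with an FDR of up to 0.178, as was that of *Lpl*, with an FDR of up to 0.0632. The *Fabp4* control level at Year 2 rested on 16.9 and 19.7 TPM in rats 1 and 2 and 29.0 in rat 3. None of the 10 genes met the DEG threshold in control rats in any pair of years, beside 0.633% of all genes between Years 0.5 and 2, 0.499% between Years 1 and 2, and 0.0% between Years 0.5 and 1. For *Lpl*, the interaction thus held a fall of 0.43 in control rats together with a rise of 0.45 in treated rats. The rats of each year were in a table of their own, so age, number of instillations and any difference in handling between the years cannot be told apart within a treatment.

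**Figure D3:**
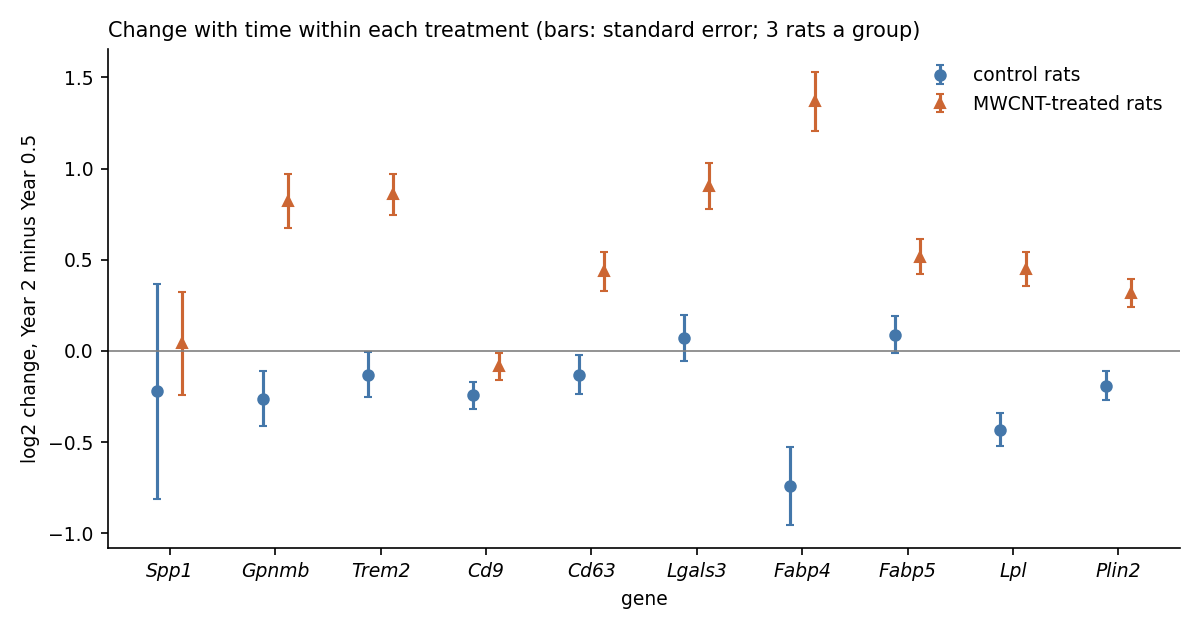
Log2 change from Year 0.5 to Year 2 (vertical axis) for each gene in control rats (circles) and MWCNT-treated rats (triangles), with bars for the standard error. The treated rats lie above 0 with an FDR below 0.05 for 8 genes, *Fabp4* and *Lpl* lie below 0 in the control rats, and the bar of *Spp1* in the control rats is the widest at 0.59.

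Among the 9 MWCNT-treated rats, the correlations of *Spp1* with the other genes were positive. Pearson's r of its log2 CPM with the other 9 genes lay between 0.17 (*Cd9*) and 0.48 (*Cd63*), Spearman's rho between 0.23 (*Lgals3*) and 0.60 (*Lpl*), and no relation passed in exact two-sided permutation tests (lowest adjusted p 0.503 for r and 0.437 for rho, over 9 relations). With the 2 rats farthest from the median of *Spp1* left out, r ranged from 0.25 to 0.48. Within a year there were 3 treated rats, too few for a relation. In the control rats the highest r of *Spp1* was with *Gpnmb* (r = 0.76, exact permutation p = 0.0175, adjusted p = 0.157 over 9 relations). For this pair rho was 0.70, and r was 0.68 without the 2 farthest rats. The genes most like *Spp1* over the 9 treated rats, among 14843 genes, were *Mmp14*, a membrane-anchored matrix metalloproteinase (r = 0.95), *LOC691918_2* (0.95), *Wnt10a* (0.94), *Desi2* (0.94) and *AABR07061068.2* (0.92). Of these, *Mmp14* had a mean of 163 TPM and *Wnt10a* 1.31 TPM in the treated rats.

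*Gpnmb* had other neighbors. The genes most like it were *Smpdl3a*, a lysosomal phosphodiesterase (r = 0.99), *Tmem176b* (0.99), *Lipa*, the lysosomal acid lipase that frees cholesterol and fatty acids (0.99), *Stom* (0.99) and *Il1rn*, the interleukin-1 receptor antagonist (0.99). *Lgals3* was ninth in that order (r = 0.99), *Fabp4* was at rank 25, *Trem2* at rank 38, *Lpl* at rank 145, *Fabp5* at rank 154, *Cd63* at rank 170 and *Plin2* at rank 1011, whereas *Spp1* was at rank 3475 and *Cd9* at rank 7860 with an r of -0.08. All these values share the 9 rats and the step between Year 1 and Year 2, and they are given as a description.

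**Figure D4:**
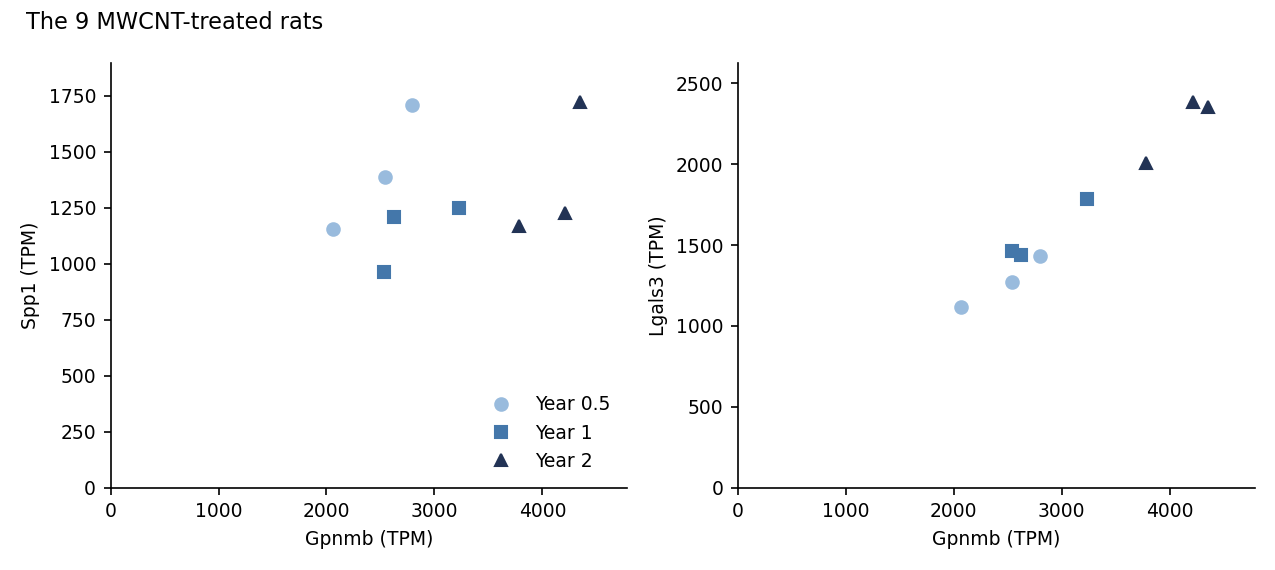
Levels in TPM of *Spp1* (left, vertical axis) and *Lgals3* (right, vertical axis) against *Gpnmb* (horizontal axes) in the 9 MWCNT-treated rats, with a point for each rat and symbols for the year. *Lgals3* follows *Gpnmb* from Year 0.5 to Year 2, with an r of 0.99 on the log2 CPM scale, whereas *Spp1* lies at 1157 to 1708 TPM at Year 0.5, 963 to 1249 TPM at Year 1 and 1169 to 1724 TPM at Year 2, with an r of 0.45.

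The cell types that could carry these transcripts were followed by marker lists. Of 18 macrophage markers, 14, 13 and 16 were higher by the DEG threshold at Years 0.5, 1 and 2, and *Cd163* was lower at Year 1. Of all genes tested, 6.07%, 6.13% and 8.17% were higher and 3.03%, 4.09% and 8.22% lower. The median log2 difference of the 18 markers was 1.56, 1.50 and 1.86. It is not compared with that of the 10 genes, which were selected on this difference. Without *Lyz2*, which alveolar epithelium also expresses, the summed level of the other 17 was 633 to 768, 819.9 to 843, and 766 to 854 TPM in control rats and 1740.1 to 2109, 1892 to 2366, and 2627 to 3006 TPM in treated rats. *Cd68*, a lysosomal glycoprotein of macrophages, had log2 differences of 2.44, 2.50 and 3.03 (SE 0.08, 0.14 and 0.11), close to those of *Lgals3*. *Marco*, a scavenger receptor, was at 0 to 0.58 TPM in the control rats and at 2.01 to 10.02 TPM in the treated rats. The interaction between Year 0.5 and Year 2 passed for 2 of the 18 markers, beside 1.31% of all genes in either direction. For *Cd68* the interaction was 0.60 (SE 0.17, FDR 0.0958). In the treated rats alone, 12 of the 18 markers were higher at Year 2 than at Year 0.5 with the FDR alone. Their median log2 change was 0.61. The same held for 8 of the 10 genes, with a median of 0.48 over the 10. Of all genes tested, 13.5% passed in either direction. The part of the macrophage markers in the results for the 10 genes was not tested.

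Adipocytes are another cell type known for *Fabp4*, *Lpl* and *Plin2*. Their defining markers *Adipoq*, *Lep*, *Plin1* and *Retn* were each below 2 TPM in every rat, and 5, 4 and 3 of the 10 adipocyte markers were tested at Years 0.5, 1 and 2. *Cfd*, the complement factor adipsin, was called higher at Years 1 and 2 (log2 1.37 and 1.89, with means of 30.9 TPM in control and 98.6 TPM in treated rats at Year 2), and none was called lower. *Lipe*, the hormone-sensitive lipase, had differences of -0.70, -0.91 and -0.90, past the FDR limit but not the log2 limit. The summed level of the 10 markers, mostly *Cfd* and *Lipe*, was 81.4 to 108 TPM in control and 76.4 to 90.5 TPM in treated rats at Year 0.5, 87.8 to 120.1 and 89.96 to 111.02 TPM at Year 1, and 95.8 to 102 and 129 to 133 TPM at Year 2, where the groups did not overlap. Of all genes tested, 6.07%, 6.13% and 8.17% were called higher and 3.03%, 4.09% and 8.22% lower at Years 0.5, 1 and 2. Markers of lung capillary endothelium, where *Lpl* is anchored, went the other way from *Cfd*, with 5, 1 and 7 of 8 tested genes lower. Alveolar type 2 cell markers were higher for 3, 3 and 5 of 9. Heart muscle markers were lower for 6 of 8, 2 of 8 and 2 of 6 tested genes. They summed to 169 to 612 TPM in control and 86.6 to 111 TPM in treated rats at Year 0.5, without overlap. The sums were 180 to 491 and 15.7 to 183 TPM at Year 1, and 73.4 to 625 and 49.2 to 99.5 TPM at Year 2. Their part in the results was not tested.

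The partners of the 10 genes were then counted from 10 lists, which held 140 different genes, of which 137 were in the tables. Of the 117, 119 and 118 that were tested at Years 0.5, 1 and 2, 22.2%, 21.8% and 31.4% were higher and 5.13%, 0.84% and 6.78% were lower by the DEG threshold, and their median log2 difference was 0.25, 0.30 and 0.41. Of all genes tested, 6.07%, 6.13% and 8.17% were higher and 3.03%, 4.09% and 8.22% lower by the same rule. Of the receptors of osteopontin, 1, 1 and 3 of 9 were higher. These were *Cd44* (log2 1.11, 1.01 and 1.44), the hyaluronan receptor of leukocytes, and at Year 2 also the integrin subunits *Itgav* (1.39) and *Itgb6* (1.43). Of the bone matrix relatives of *Spp1*, *Ibsp* was the only gene tested and did not pass (0.21, 0.78 and 0.78), and the 3 others did not reach the filter on low counts.

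Of the genes of TREM2 signaling, 4, 3 and 4 of 11 were higher, beside 6.07%, 6.13% and 8.17% of all genes. *Apoe*, an apolipoprotein that binds TREM2, had the largest difference (1.73, 2.19 and 2.49 in log2), followed at Year 2 by the kinase *Syk* (1.19), the adaptor *Card9* (1.16) and the exchange factor *Vav1* (1.12). Of the lysosomal and lipoprotein genes of lipid-associated macrophages, 14, 14 and 16 of 21 were higher and none lower, with medians of 1.34, 1.40 and 1.84. In that list, at Year 2, *Cd68* was followed by the legumain gene *Lgmn* (1.75, 1.94 and 2.58), *Apoe*, and *Capg* (2.05, 2.16 and 2.47), an actin-capping protein. Of 18 transcription factors of the lipid and lysosome programs, 5, 4 and 7 were higher and none lower. Among them were *Bhlhe41* (2.11, 2.08 and 2.68), *Mitf* (1.36, 1.00 and 1.73) and its relative *Tfec* (1.45, 1.12 and 1.39). Other listed members of the MITF and TFE family, *Tfeb* (0.61, 0.59 and 0.79) and *Tfe3* (0.30, 0.50 and 0.36), were not called in any year. No relation between these genes and the promoter letters was tested.

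Relatives of the lipid genes were called in both directions. Among lipid droplet proteins and lipases, 1, 2 and 2 of 15, 16 and 15 tested genes were higher and 3, 1 and 1 were lower. Of all genes tested, 6.07%, 6.13% and 8.17% were higher and 3.03%, 4.09% and 8.22% lower. The lists of lipid relatives are small, and nothing is read from their counts. *Soat1*, which esterifies cholesterol for storage, was higher (1.47, 1.21 and 1.98), and *G0s2*, an inhibitor of the triglyceride lipase ATGL, was lower at Years 0.5 and 2 (-1.33 and -2.21). *Plin5* was lower at Year 0.5 (-1.26, SE 0.38), and the hypoxia-inducible lipid droplet gene *Hilpda* was higher at Year 1 (2.00, SE 0.47), the only time point at which it was tested. Of 11 genes of fatty acid uptake and activation, *Acsl4* was higher at Years 0.5 and 2 (1.33 and 1.11) and *Fabp3*, the heart type, was lower at Year 0.5 (-1.56, SE 0.50). At that time 6 of 8 tested heart muscle markers were also lower, and their part was not tested. Of 8 regulators and relatives of lipoprotein lipase, *Gpihbp1*, the endothelial anchor of the enzyme, was lower at Years 0.5 and 2 (-1.09 and -1.20). *Angptl4*, which inhibits the enzyme, was higher at Year 2 (1.42, SE 0.19), and *Angptl8* was higher at Years 1 and 2 (1.45 and 1.19).

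Of 18 other tetraspanins, *Cd53*, a leukocyte tetraspanin, was the only gene called higher (1.29, 1.32 and 1.69), beside 6.07%, 6.13% and 8.17% of all genes. At Year 2 there were 4 lower, among them *Tspan7* (-1.38), *Tspan13* (-1.28) and *Tspan8* (-1.19), beside 8.22% of all genes. Of the galectins, *Lgals1* was higher at Years 1 and 2 (1.00 and 1.20) and *Lgals3bp*, which binds galectin-3, at Year 2 (1.03, SE 0.12). *Lgals5* (-2.45, SE 0.27) and *Lgals7* (-1.94, SE 0.59) were lower at Year 2, and because *Lgals5* closely resembles *Lgals9*, its reads may not have been told apart from those of that gene.

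**Figure D5:**
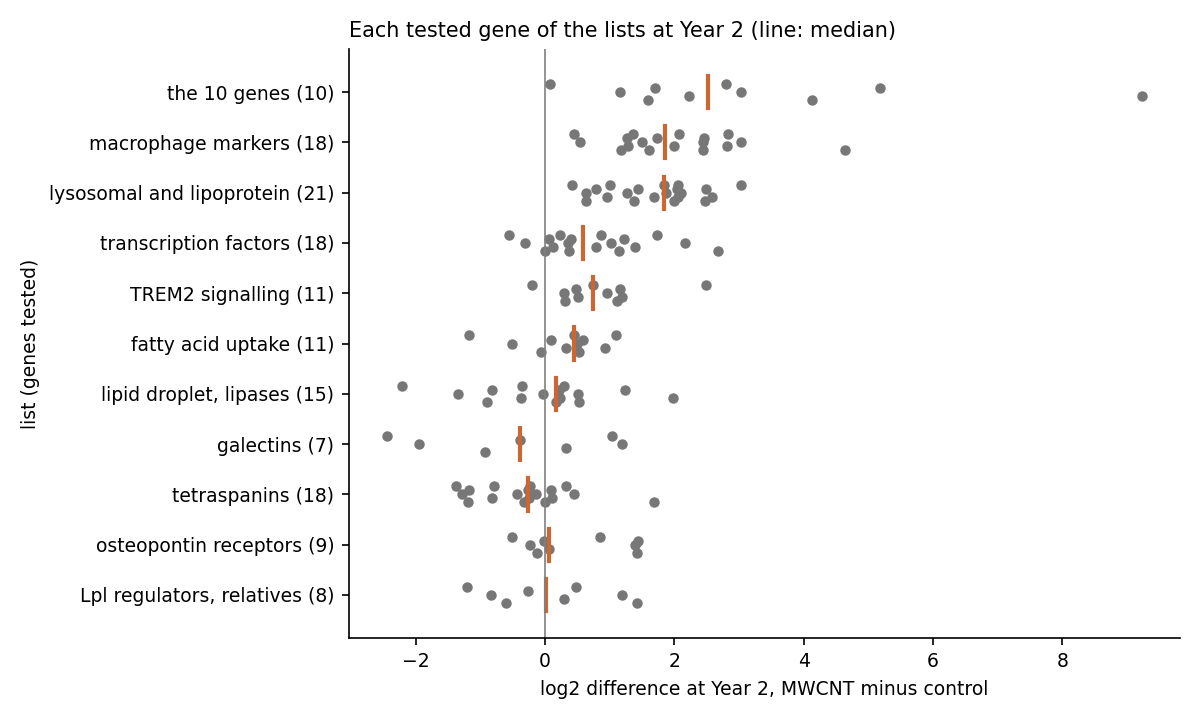
Log2 difference at Year 2 (horizontal axis) of every tested gene of each list, with a line at the median and the number of genes tested beside the name. The lysosomal and lipoprotein list, with a median of 1.84, and the macrophage markers, with a median of 1.86, lie to the right of 0, whereas the tetraspanins, galectins and osteopontin receptors are spread around it.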

How the data were processed

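RNA-seq of 18 rat lungs was analysed. Per the labels and methods, reads were mapped by the authors in CLC Genomics Workbench to Rnor_6.0. The authors deposited the count of reads per gene, not normalized, and TPM values. The 36 RPKM and CPM columns and the authors' own fold changes and p-values were not used. The genes, lists and tests were chosen with earlier results of these data known.

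Counts were tested in R 4.3.3 with edgeR 4.0.16 (filterByExpr with minimum counts of 10 in a sample and 15 in total, TMM, quasi-likelihood test, Benjamini-Hochberg FDR over all genes tested). Treatment was compared within the 6 rats of a year, and time and interaction in one model of 18 rats. Standard errors came from the log2 difference and the F statistic. The p-values set a difference between groups of 3 rats against a variance pooled over the groups in the model and moderated across genes. The text names all 10 genes, and up to 4 called genes per list with the largest difference at Year 2 or the latest year tested. It also names the 5 genes most correlated with *Spp1* and with *Gpnmb*, and markers beside the results they move with. *Ibsp*, *Tfeb* and *Tfe3* were named after their values were seen. A gene that the rule selects is not reported here. Correlations used log2 CPM (prior count 2) in Python 3.11.15. The steps were tested on simulated data. Alternatives used other filters and scalings, DESeq2 1.42.0, limma 3.58.1 on log2(TPM + 1) and log2(TPM + 0.1), a replicate block, other samples in the fit, other call rules, and each rat left out.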

Additional observations from a re-analysis of the deposited data

Results flagged for a closer look

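The treatment difference changed with time, by the interaction test, for 6 of the 10 genes, and each is listed because 2 time points differed under the same contrast. From Year 0.5 to Year 2 the log2 difference increased by 2.11 for *Fabp4*, 1.08 for *Gpnmb*, 0.99 for *Trem2*, 0.88 for *Lpl*, 0.83 for *Lgals3* and 0.51 for *Plin2*. From Year 1 to Year 2 it increased by 1.31 for *Fabp4* and by 0.88 for *Lpl*. The call of *Fabp4* in that interval was lost with library size only (FDR 0.0521), with the upper quartile (0.0564) and in most fits with a single rat left out (up to 0.136), and that of *Lpl* without control rat 3 of Year 1 (0.0507). The count for the first interval was 6 of 10 with the main model and between 3 and 7 with single rats left out.

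Groups held 3 rats, so no rat was tested as an outlier. Control rat 3 of Year 2 had the highest level of its group for *Spp1*, *Gpnmb*, *Cd9*, *Cd63*, *Lgals3*, *Fabp4* and *Lpl*.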

How the results depend on the processing

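The direction of the treatment difference of 9 of the 10 genes held under every alternative, and *Cd9* turned at Years 1 and 2 as given above. With the FDR alone, related genes higher numbered 56, 58 and 67 and lower 21, 19 and 21 at the 3 time points. Related genes lower at Year 1 (1 as reported) numbered 5 with library size only, 2 with the upper quartile, 3 and 7 with limma on log2(TPM + 1) and log2(TPM + 0.1), and 2 with the replicate block. Rats left out in turn gave 1 to 6 lower at Year 0.5 (1 without treated rat 2) and 1 to 5 at Year 1 (5 without treated rat 1). For the 10 genes, an added log2 limit of 1 left 2 interactions between Years 0.5 and 2 and 1 between Years 1 and 2. The latter count was also 1 with library size only or the upper quartile, 5 with DESeq2, and 0 to 6 with rats left out, and the former was 3 to 7. With the FDR alone, 2 genes changed from Year 0.5 to 2 and 1 from Year 1 to 2 in control rats, and 8 and 5 in treated rats, where the DEG threshold gave 1 to 2 and 0 to 1 with rats left out (2 without rat 2 of Year 0.5, 1 without rat 2 of Year 1). For *Spp1*, rats left out moved the interaction between Years 0.5 and 2 from -0.24 to 1.82 and the change in treated rats from -0.18 to 0.21, limma gave -0.0485 and -0.0486 with pseudocounts of 1 and 0.1, and its r with *Cd9* was -0.0028 on log2(TPM + 1). The causes were not tested.

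The recurring replicate numbers belong to different animals. Deviations correlated at 0.0069 on average over 9 same-numbered pairs (from -0.1474 to 0.1068), and the replicate block left the called interactions of the 10 genes at 6 and 2. Control counts of 7 to 67 limit the precision of *Spp1*.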

Other observations

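Other marker lists gave the following values. Beside their counts, 6.07%, 6.13% and 8.17% of all genes tested were higher and 3.03%, 4.09% and 8.22% lower at the 3 time points. Of 6 tested markers of alveolar macrophages, 3, 3 and 4 were higher by the DEG threshold at Years 0.5, 1 and 2, and the summed level of the list was 94.7 to 122.6 TPM in control rats and 157 to 207 TPM in treated rats. Neutrophil markers summed to 216 to 387 TPM in control rats and to 370 (Year 0.5) up to 1149 TPM (Year 2) in treated rats. These sums were mostly *S100a8* and *S100a9*, the subunits of calprotectin. With 1, 2 and 2 of 7 genes higher, no neutrophil marker other than these subunits was called. The median log2 difference of the neutrophil list was 0.06, 0.35 and 0.34. T and B cell markers reached 743 TPM at most in the control rats and 1916 TPM at most in the treated rats, both at Year 2, and 2 of 9 genes were higher in each year while 2, 0 and 5 were lower. Alveolar type 1 cell markers summed to 5119 to 5903 TPM in control rats and 3080 to 4322 TPM in treated rats. Airway secretory cell markers summed to 18143 to 32899 TPM in control rats and 10658 to 15624 TPM in treated rats. Fibroblast markers had 1 gene of 8 higher and 1 lower, at Year 2.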
